A study of Mus musculus with 4 samples.

Results

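The Notch pathway was followed through 10 genes in limb bone marrow: the receptors Notch1, Notch2, Notch3 and Notch4, the ligands Jag1, Dll1 and Dll4, and the response genes Hes1, Hey1 and Heyl. They were taken by symbol from the 32285 genes of the count matrices, and each symbol matched 1 gene. Marrow cells were sorted from postnatal day 12 C57BL/6 mice, 3 mutant and 3 control animals per the labels, as living cells (DAPI-negative, Calcein-AM-positive) without the blood markers CD45 and Ter119, and droplet libraries of RNA 3′ ends were made with 10x Genomics v3.1 reagents. In all, 4 libraries were analysed. The label of mutant 1 gives the genotype as Prx1-cre;Mettl3-fl/fl and that of mutant 2 gives it as mutant, while control 1 and control 2 are labelled control, with no word on whether controls carry the cre or a floxed allele. Prx1-cre acts in limb mesenchyme, from which stromal and bone cells derive and endothelial and blood cells do not. Mettl3 encodes the catalytic subunit of the enzyme that methylates adenosine in RNA.

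In the Notch pathway, a transmembrane ligand of the Jagged or Delta-like kind on one cell binds a Notch receptor on its neighbour. The receptor is then cut, first by an ADAM protease and then by γ-secretase, and its intracellular part enters the nucleus, joins the DNA-binding protein RBPJ and turns on repressor genes of the Hes and Hey families. In bone, Notch signalling is known to hold back osteoblast differentiation, and in vessels it is known to shape arteries and sprouts.

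Of the cells with 1000 or more UMIs (unique molecular identifiers, 1 per captured RNA), 500 or more genes and no more than 10% mitochondrial UMIs, 2628 cells were kept in mutant 1, 4587 in mutant 2, 5808 in control 1 and 3635 in control 2, from library totals of 47390414 to 116863081 UMIs. Cells were gated by marker genes that include none of the 10 genes. The stromal gate took 46 and 16 cells in mutants 1 and 2, against 973 and 47 in controls 1 and 2. The bone gate took 1971 and 1361 against 294 and 45. The endothelial gate took 43 and 677 against 27 and 519. The libraries thus differ widely in which classes they hold, also within a genotype. Mutant cells in the stromal gate held less of the stromal marker list, with a summed level of 8931 and 13750 CPM (UMIs per 1000000 UMIs of the summed class) in mutants 1 and 2, against 39990 and 35310 CPM in controls 1 and 2. Between 2 and 10 cell barcodes were shared by any 2 libraries. Mettl3 itself stood at 4.04 and 6.66 CPM in bone cells of mutants 1 and 2, against 6.68 and 10.1 CPM in controls 1 and 2. The sources used here do not give the floxed part of the gene, so a 3′ count may lie outside the deleted part and then checks nothing.

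Per GENCODE M21 on mm10, Notch1 lies at chr2:26457903-26516663, Notch2 at chr3:98013527-98150361, Notch3 at chr17:32120820-32166852, Notch4 at chr17:34564268-34588503, Jag1 at chr2:137081456-137116644, Dll1 at chr17:15367354-15376872, Dll4 at chr2:119325784-119335962, Hes1 at chr16:30064384-30067796, Hey1 at chr3:8663359-8667256 and Heyl at chr4:123233556-123249875. Notch1, Notch3 and Dll4 each overlap a counted gene on the other strand (0610009E02Rik and Gm13568, Gm17276, and Gm14207), and the sources used here do not say whether counting used strand, so the split between these pairs is uncertain. RefSeq promoter windows of 250 bases before and 50 after the start (GRCm38.p6) were at hand for 7 of the 10 genes, in 8 windows. Of the genes with a window, the 4 below are shown because their levels differed most between endothelial and bone cells: Notch4, Dll1 and Dll4, high in endothelial cells, and Notch3, nearly absent there. Capitals mark AGGAAG or its reverse complement CTTCCT, a core of the sites read by ETS factors, a family active in endothelial cells. The Notch4 window (chr17:34564045-34564344, plus strand) holds 4 matches, the first Dll1 window (chr17:15375774-15376073, minus strand) holds 1, and the Dll4 (chr2:119325534-119325833, plus strand) and Notch3 (chr17:32166841-32167140, minus strand) windows hold 0.
Notch4: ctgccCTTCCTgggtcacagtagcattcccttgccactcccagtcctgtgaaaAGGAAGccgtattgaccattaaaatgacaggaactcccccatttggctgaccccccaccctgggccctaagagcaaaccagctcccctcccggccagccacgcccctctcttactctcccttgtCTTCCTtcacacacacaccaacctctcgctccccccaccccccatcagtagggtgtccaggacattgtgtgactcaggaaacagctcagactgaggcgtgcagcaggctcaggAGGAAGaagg
Dll1: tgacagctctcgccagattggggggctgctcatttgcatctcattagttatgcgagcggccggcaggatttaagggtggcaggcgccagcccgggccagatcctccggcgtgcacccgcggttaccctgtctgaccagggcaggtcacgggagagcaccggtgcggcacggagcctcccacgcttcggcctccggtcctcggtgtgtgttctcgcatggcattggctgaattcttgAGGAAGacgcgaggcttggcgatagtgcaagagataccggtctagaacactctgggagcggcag
Dll4: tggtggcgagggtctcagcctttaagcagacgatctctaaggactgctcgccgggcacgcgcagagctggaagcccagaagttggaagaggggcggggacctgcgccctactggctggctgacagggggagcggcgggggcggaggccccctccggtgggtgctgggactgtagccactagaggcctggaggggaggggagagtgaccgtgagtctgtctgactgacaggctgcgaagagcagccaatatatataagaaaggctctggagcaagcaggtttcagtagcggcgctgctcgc
Notch3: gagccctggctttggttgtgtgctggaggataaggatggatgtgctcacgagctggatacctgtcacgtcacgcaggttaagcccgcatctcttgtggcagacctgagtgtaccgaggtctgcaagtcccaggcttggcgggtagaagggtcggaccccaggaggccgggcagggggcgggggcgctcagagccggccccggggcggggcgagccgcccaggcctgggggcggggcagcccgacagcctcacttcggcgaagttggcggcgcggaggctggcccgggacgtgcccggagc
AGGAAG on either strand was in 2 of the 8 windows, and the second Dll1 window holds 0 matches. Over all 32851 windows of the table, 35.4% hold AGGAAG on either strand. The RBPJ core TGGGAA (reverse complement TTCCCA, no overlap with AGGAAG) was in 0 of the 8 windows and in 25.6% of all windows. These are matches of letters and show no binding.

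Among endothelial, stromal and bone cells, Notch1 and Notch4 were highest in endothelial cells, Notch3 in stromal cells and Notch2 in stromal and then bone cells. The ligands Dll1 and Dll4 were close to 0 in stromal and bone cells, while Jag1 was present in both endothelial and stromal cells. The fibroblast gate reached 20 cells in mutant 1 alone, where its 23 cells held 93.5 CPM of Notch2 and 82.5 CPM of Jag1, within the stromal range of Notch2 and the endothelial range of Jag1. The endothelial classes were compared with bone cells of the same 4 libraries by edgeR's quasi-likelihood test on UMIs summed per library and class, with the library as a block and Benjamini-Hochberg adjustment over 11626 genes. In that comparison 44.4% of all genes tested passed an adjusted p of 0.05 (19.5% higher and 24.9% lower in endothelial cells), and all 10 genes did, 6 higher and 4 lower; their median log2 difference was 1.39, against -0.08 over all genes tested.

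**Figure D1:**
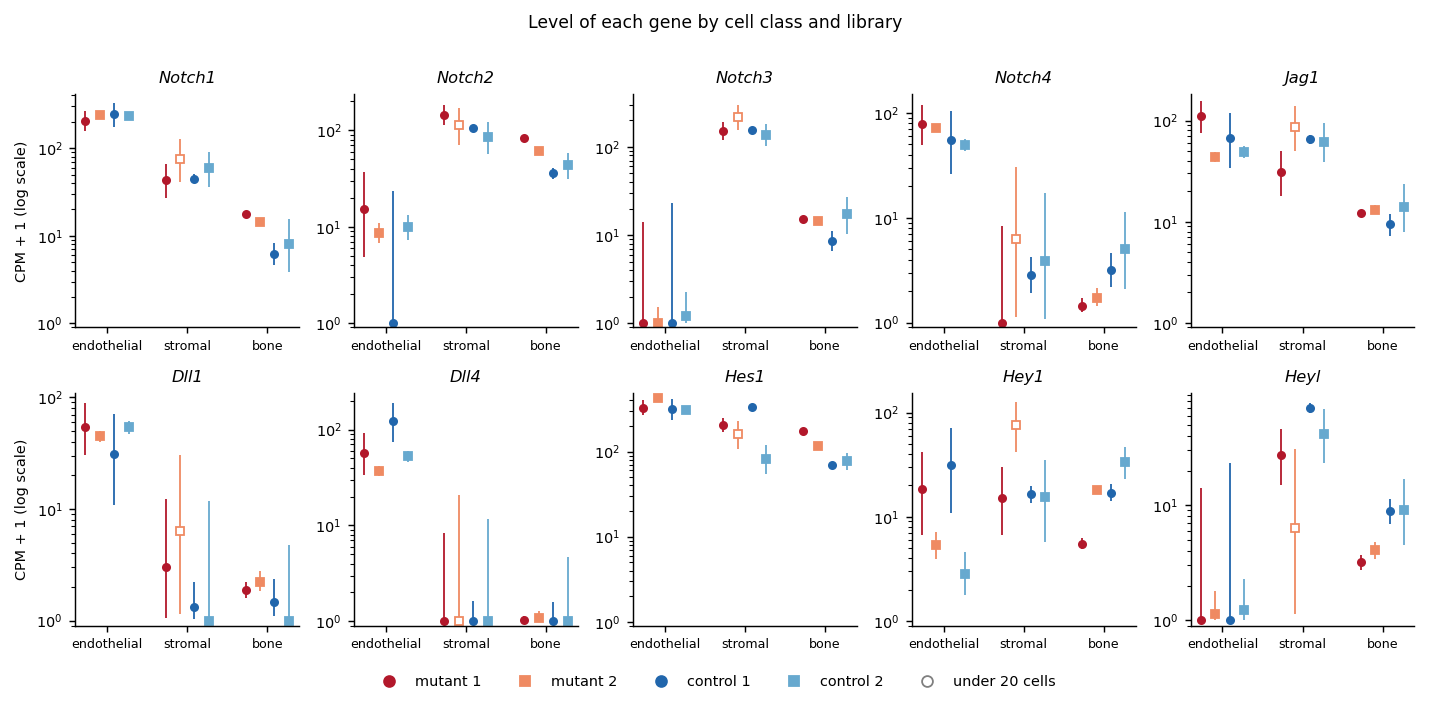
CPM + 1 on a log scale for each of the 10 genes in endothelial, stromal and bone cells, with 1 point per library (mutants left of controls) and exact 95% Poisson bars that cover counting error only; open symbols rest on under 20 cells. Notch1, Notch4, Dll1 and Dll4 stand highest in endothelial cells of all 4 libraries, and Notch3 stands highest in stromal cells and at or near 0 in endothelial cells.

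Notch1 had 204.6 and 240.7 CPM in endothelial cells of mutants 1 and 2 and 241.7 and 231.6 CPM in those of controls 1 and 2, against 16.8, 13.3, 5.28 and 7.06 CPM in bone cells of the same libraries in the same order. The ranges did not come near each other, and the endothelial level was higher by 3.74 ± 0.30 on the log2 scale (SE, 4 libraries; edgeR adjusted p = 3.14e-06). Over classes with at least 20 cells in a library, Notch1 ran from endothelial cells through stromal cells (42.1 to 58.0 CPM in 3 libraries), neutrophils (20.5 to 65.5 CPM in 4 libraries) and B-lineage cells (23.9 to 46.1 CPM in 3 libraries) to bone cells and then to erythroid cells (0.12 to 0.71 CPM in 4 libraries). Stromal cells, neutrophils and B-lineage cells overlapped in that order and cannot be ranked.

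Notch4, a receptor known mainly from endothelium, had 77.6 and 71.2 CPM in endothelial cells of mutants 1 and 2 and 54.4 and 48.5 CPM in those of controls 1 and 2. Bone cells held 0.45 and 0.72 CPM in mutants 1 and 2 and 2.17 and 4.04 CPM in controls 1 and 2, with 4 to 18 UMIs per library. The difference was 5.43 ± 0.56 (log2, edgeR adjusted p = 2.03e-05), with no overlap between the classes.

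Notch2 showed the reverse order. Its level was 14.1 and 7.62 CPM in endothelial cells of mutants 1 and 2 and 0 and 8.87 CPM in those of controls 1 and 2, against 82.9, 60.5, 35.1 and 42.4 CPM in bone cells in the same order, a difference of -3.33 ± 0.28 (log2, edgeR adjusted p = 4.71e-06). Stromal cells held 144.4 CPM in mutant 1, 103.8 CPM in control 1 and 84.0 CPM in control 2, above every bone value. Erythroid cells held 13.7 to 19.9 CPM in the 4 libraries, so endothelial cells overlapped them or lay below.

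Notch3, the receptor of mural cells that ensheath vessels, was a stromal gene here. Stromal cells held 150.4 and 217.9 CPM in mutants 1 and 2 and 153.5 and 136.2 CPM in controls 1 and 2, with only 16 cells behind the mutant 2 value. Endothelial cells gave 1 UMI of Notch3 in 4 libraries, and their level was 7.76 ± 0.67 lower than in bone cells (log2, edgeR adjusted p = 5.58e-06); since 3 of the 4 endothelial sums are 0, the size of that fit depends on its prior count. In mutant 2, whose endothelial sum is the deepest, bone cells held at least 31.4-fold more Notch3, counted against a floor of 3 UMIs per library. The few cells in the mural gate stood above the stromal, bone and endothelial levels: 1 cell of mutant 1 had 358.5 CPM, and 6 and 2 cells of controls 1 and 2 had 1874 and 1529 CPM. The mural marker list summed to 866 and 882 CPM in stromal cells of mutants 1 and 2, against 204 and 142 CPM in controls 1 and 2, and its part in the stromal Notch3 level was not tested.

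Among ligands, Dll4, the ligand of arterial and sprouting endothelium, was the most sharply divided. Endothelial cells held 56.5 and 36.4 CPM in mutants 1 and 2 and 120.8 and 51.6 CPM in controls 1 and 2, while bone cells gave 1 and 2 UMIs in the mutants and 0 in the controls. Within mutant 2 the ratio of endothelial to bone level was 456 (95% counting interval 125 to 3788), and within control 1 it was at least 259-fold, against a floor of 3 UMIs. Within mutant 1 the ratio was 2263 (352 to 9.49e+04), and within control 2 it was at least 17.1-fold against that floor. Dll1 followed with 52.9 and 43.6 CPM in endothelial cells of the mutants and 30.2 and 52.8 CPM in those of the controls, against 0 to 1.24 CPM in bone cells, a log2 difference of 4.96 ± 0.36 (edgeR adjusted p = 1.72e-06). Jag1 was also higher in endothelial than in bone cells (1.75 ± 0.27, edgeR adjusted p = 4.49e-04): it had 109.4 and 42.9 CPM in mutant and 66.5 and 48.2 CPM in control endothelial cells, against 8.39 to 13.1 CPM in bone cells of all 4 libraries.

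The response genes did not follow one class. Hes1 had 328 and 429 CPM in endothelial cells of mutants 1 and 2 and 314 and 306 CPM in those of controls 1 and 2, higher than in bone cells by 1.04 ± 0.25 (log2, edgeR adjusted p = 0.00563). Heyl was lower in endothelial than in bone cells, by -5.35 ± 0.71 (log2, edgeR adjusted p = 1.39e-04), with a single UMI in mutant 2 and a single one in control 2. Its endothelial sums were 0 in mutant 1 and control 1, so the size of that fit depends on its prior count. Bone cells held 21.8-fold more Heyl in mutant 2 (95% counting interval 3.79 to 871) and 35.5-fold more in control 2 (4.76 to 1575). Against a floor of 3 UMIs, the ratio was at least 0.207 in mutant 1 and 0.437 in control 1, which shows no difference there. Hey1 did not have the same direction in all libraries. It had 17.6 and 4.37 CPM in endothelial cells of mutants 1 and 2 and 30.2 and 1.82 CPM in those of controls 1 and 2, from 5 to 31 UMIs, against 4.49, 17.1, 16.0 and 32.3 CPM in bone cells in the same order. Endothelial Hey1 was thus above bone Hey1 in mutant 1 and control 1 and below it in mutant 2 and control 2, the libraries with more endothelial cells. The fitted difference was -2.31 ± 0.77 (log2, edgeR adjusted p = 0.0318). The Hey1 call was lost without control 2, where the difference was -1.22, without mutant 2 (-1.80) and with DESeq2, and without mutant 2 Heyl was not tested.

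Of 43 other genes of the pathway, 35 were tested in the same fit, and 13 were higher and 4 lower in endothelial cells, or 48.6% against the 44.4% of all genes. The 5 with the smallest p were all higher: Egfl7, which encodes a secreted endothelial protein, by 8.39 ± 0.55 (log2), Mfng, a fringe enzyme that adds sugars to Notch, by 8.15 ± 0.67, Nrarp, a Notch-induced inhibitor of the pathway, by 7.54 ± 0.66, Neurl1b, a ubiquitin ligase for Notch ligands, by 4.91 ± 0.49, and Numb, an inhibitor of Notch, by 2.41 ± 0.25 (edgeR adjusted p from 8.22e-07 to 2.14e-05). Nrarp stood at 127 and 83.9 CPM in endothelial cells of mutants 1 and 2 and at 24.2 and 68.5 CPM in those of controls 1 and 2, against at most 1.01 CPM in bone cells.

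Stromal cells were compared with bone cells in the 2 controls alone, since the stromal gate took few mutant cells. Notch1, Notch3, Jag1 and Heyl were the genes that set stromal cells apart under every setting tested with both controls. Of all 11634 genes tested, 45.2% passed the threshold (22.9% higher and 22.4% lower in stromal cells); of the 8 genes that passed the filter on low counts, 6 were higher (Notch1, Notch2, Notch3, Jag1, Hes1 and Heyl), Hey1 was lower, and Notch4 was not called. Notch3 had 153.5 and 136.2 CPM in stromal cells of controls 1 and 2, against 7.61 and 16.1 CPM in their bone cells (3.14 ± 0.28 on the log2 scale, edgeR adjusted p = 1.14e-27). Heyl had 68.6 and 40.6 CPM against 7.92 and 8.07 CPM (2.13 ± 0.33, edgeR adjusted p = 7.20e-10), Notch1 44.1 and 58.0 CPM against 5.28 and 7.06 CPM (2.24 ± 0.34, 4.12e-10), and Jag1 64.2 and 60.9 CPM against 8.39 and 13.1 CPM (1.93 ± 0.31, 5.25e-09). The size of these p-values rests on 1 residual degree of freedom and on a prior estimated as infinite, so that genes of like abundance share 1 spread. The fits also scale the sums against each other (TMM normalization), and the CPM are not so scaled. For Notch1, Heyl and Jag1 the fitted difference is smaller than the CPM of either control would give.

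Hes1 differed between the 2 controls in stromal cells and its call rests on control 1. It had 337.4 CPM in stromal cells of control 1 and 81.1 CPM in those of control 2, from 973 and 47 cells, against 68.3 and 75.7 CPM in bone cells of the same libraries. The fitted difference was 0.72 ± 0.25 (log2, edgeR adjusted p = 0.0124), and without control 1 it turned to -0.63. That last value carries the TMM scaling, since by CPM stromal Hes1 of control 2 lay slightly above its bone Hes1. In DESeq2, Hes1, Notch2 and Hey1 were no longer called, and without control 1 the values were 0.25 for Notch2 and -1.87 for Hey1. Hey1 was lower in stromal cells (15.4 and 14.5 CPM against 16.0 and 32.3 CPM in bone cells, -1.09 ± 0.32, edgeR adjusted p = 0.00235), and in control 1 the levels nearly met. Its UMIs numbered 93 and 5 in stromal cells of controls 1 and 2, against 103 and 32 in bone cells. The fitted size carries the TMM scaling, and no fit without such scaling was run.

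Of the other pathway genes, 33 were tested in stromal against bone cells, 10 higher and 5 lower, or 45.5% against the 45.2% of all genes. The list as a whole did not stand out from them. Those with the smallest p were Maml2, a coactivator of the Notch complex (3.84 ± 0.49), Rbpj, which encodes its DNA-binding partner (1.91 ± 0.25), Lfng, another fringe enzyme (2.77 ± 0.38), and Adam17, one of the ADAM proteases (1.19 ± 0.28), all higher, and Neurl1a, a ubiquitin ligase (-3.76 ± 0.83), lower (log2, edgeR adjusted p from 4.59e-14 to 6.85e-05). Rbpj had 224 and 243 CPM in stromal cells of controls 1 and 2, against 36.3 and 34.3 CPM in their bone cells.

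The genotype comparison sets the mutant libraries against the controls within a class. In bone cells, receptors and response genes moved in different directions. Notch1, Notch2 and Hes1 were higher in mutant cells, and Notch4, Hey1 and Heyl were lower. Of the 12935 genes tested, 17% passed the threshold (10% higher and 6.95% lower in mutants); 9 of the 10 genes passed the filter on low counts (Dll4 did not) and 6 of them were called, 3 in each direction, in a fit with processing batch as a term. The median difference was 0.33 over these 9 and 0.04 over all genes tested. These calls depend on the fit: 2 remained in DESeq2 (Hes1 and Hey1), 1 without the batch term (Heyl), and 0 when control 1, control 2 or mutant 1 was left out, where no batch term can be kept. Without mutant 2, 5 were called. Without mutant 1 the differences shrank to 0.43 for Notch2 and 0.44 for Hes1.

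**Figure D2:**
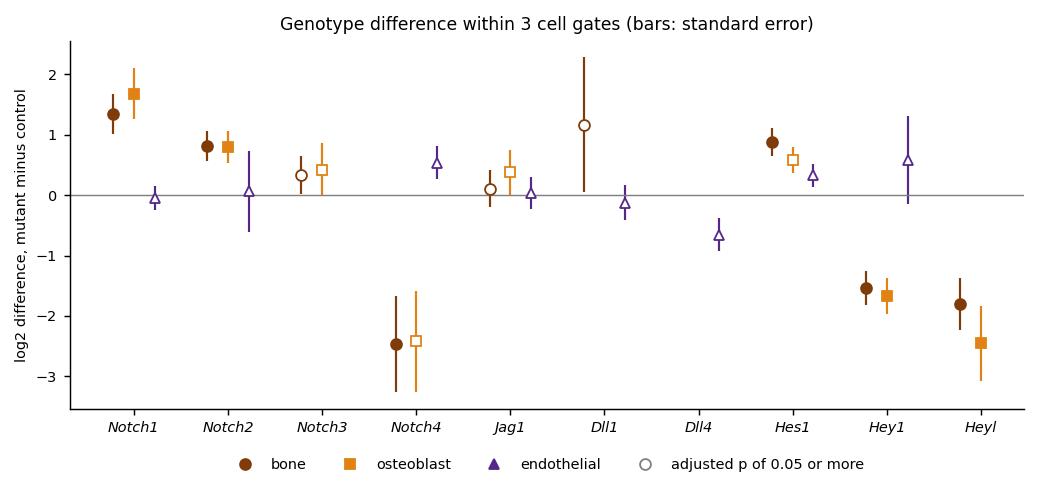
Fitted log2 difference, mutant minus control, with its standard error for each gene in bone cells, in osteoblasts within them and in endothelial cells; filled symbols passed an adjusted p of 0.05 and genes under the filter have no symbol. Notch1 and Notch2 lie above 0 and Notch4, Hey1 and Heyl below 0 in both bone cells and osteoblasts, and no endothelial value is filled.

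Notch1 had 16.8 and 13.3 CPM in bone cells of mutants 1 and 2, against 5.28 and 7.06 CPM in controls 1 and 2, from 675 and 334 UMIs against 34 and 7. Both mutants lay above both controls, and the difference was 1.34 ± 0.33 (log2, edgeR adjusted p = 0.0041). Notch2 rose to 82.9 and 60.5 CPM in the mutants, against 35.1 and 42.4 CPM in the controls, also without overlap (0.81 ± 0.25, edgeR adjusted p = 0.0208). Within batches the log2 ratio of mutant to control was 1.67 in batch 1 and 0.92 in batch 2 for Notch1, and 1.24 and 0.51 for Notch2, larger in both cases in batch 1 (mutant 1 and control 1) than in batch 2 (mutant 2 and control 2). Barcodes of 10 to 100 UMIs, a sample of free RNA, held 18.2 CPM of Notch1 in mutant 2, above its bone cells, against 6.75 and 3.36 CPM in controls 1 and 2, and 26.4 CPM of Notch2, against 16.5 and 13.8 CPM. Free RNA thus differed between these libraries in the same direction as the bone cells, and its part in the results was not tested.

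Hes1 had 172.2 and 114.9 CPM in bone cells of the mutants, against 68.3 and 75.7 CPM in the controls. The groups did not overlap, the difference was 0.88 ± 0.24 (log2, edgeR adjusted p = 0.0084), and the within-batch ratios were 1.33 and 0.60. After each cell was thinned to 1000 UMIs, 14.8% and 13.7% of bone cells of mutants 1 and 2 held a Hes1 UMI (exact 95% intervals 13.2 to 16.4% and 11.9 to 15.7%), against 3.74% and 8.89% in controls 1 and 2 (1.88 to 6.60% and 2.48 to 21.2%). Unthinned, the shares were 65.9% and 49.3% against 39.1% and 42.2%, at median depths of 19580 and 15100 UMIs against 21270 and 20760. Erythroid cells, which should lack Hes1, gave thinned shares of 1.16% and 1.18% in the mutants and 0.055% and 0% in the controls (1 of 86, 10 of 850, 2 of 3636 and 0 of 2656 cells, the last allowing up to 0.113%), at median depths of 12970 and 18100 UMIs against 23430 and 31870. The free-RNA barcodes held 110.9 CPM of Hes1 in mutant 2, close to its bone cells, against 32.4 and 14.2 CPM in controls 1 and 2.

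Hey1 and Heyl, the other response genes, were lower in mutant bone cells. Heyl had 2.19 and 3.07 CPM in mutants 1 and 2, against 7.92 and 8.07 CPM in controls 1 and 2, with no overlap (-1.80 ± 0.43, edgeR adjusted p = 0.0028) and within-batch log2 ratios of -1.85 and -1.40. The free-RNA barcodes held 2.57 CPM of Heyl in mutant 2, against 7.76 and 0.373 CPM in controls 1 and 2. In mutant 2 and control 1 these were close to the bone level. The part of free RNA in the result was not tested. Hey1 had 4.49 and 17.1 CPM in the mutants, against 16.0 and 32.3 CPM in the controls. Here the groups overlapped, since mutant 2 lay above control 1, and the call came with the batch term (-1.54 ± 0.28, edgeR adjusted p = 1.05e-04); without it the difference was -1.21 ± 0.52 and was not called (edgeR adjusted p = 0.211). Free RNA held 10.3 CPM of Hey1 in mutant 2, against 3.38 and 0 CPM in controls 1 and 2. Within batches Hey1 was lower in both mutants, by log2 ratios of -1.83 and -0.92. Without mutant 1 the fitted Hey1 difference shrank to -0.59 ± 0.38, and without control 2 to -0.86 ± 0.60.

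Notch4 was called on few UMIs. Mutant bone cells held 18 and 18 UMIs (0.45 and 0.72 CPM), against 14 and 4 UMIs in the much smaller control sums (2.17 and 4.04 CPM). The difference was -2.46 ± 0.79 (log2, edgeR adjusted p = 0.0278). The free-RNA barcodes held 8.19 CPM of Notch4 in mutant 2, against 1.01 and 1.12 CPM in controls 1 and 2, the opposite order to the bone cells. The call was also lost with no filter on low counts and with Scrublet doublets removed. Notch3 (0.33 ± 0.31, edgeR adjusted p = 0.525) and Jag1 (0.11 ± 0.31, 0.860) were not called, and Dll1 gave 35 and 31 UMIs in the mutants against 3 and 0 in the controls and was not called either.

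Other cell types' markers in the bone gate also differed between genotypes. The mural list summed to 195.5 and 150.8 CPM in mutants 1 and 2, against 64.6 and 93.9 CPM in controls 1 and 2, with 6 and 6 against 5 and 4 of 8 markers detected and Myh11 and Higd1b at 0 in all 4 libraries. The endothelial list summed to 17.96 and 35.5 CPM against 6.21 and 5.05 CPM (6 and 10 against 4 and 4 of 10 markers, with Tie1, Tek, Cldn5 and Flt1 at 0 in all but mutant 2), and the neutrophil list to 64.1 and 282.5 CPM against 6.37 and 6.06 CPM (9 and 9 against 7 and 3 of 9 markers). Their part in the bone results was not tested; the endothelial list was higher in mutants where Notch4 was lower.

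The bone gate also held a different mix of subtypes in each genotype. Osteocyte-like cells, gated by Mepe and Dmp1 with other osteocyte markers, made up 18.6% and 15.9% of bone cells in mutants 1 and 2, against 3.74% and 4.44% in controls 1 and 2. Osteoblasts made up 44.9% and 53.6% against 63.9% and 64.4%, and progenitor-like cells, gated by matrix genes such as Postn and Aspn, 16.8% and 5.95% against 9.18% and 11.1%. The 10 genes did not have the same level in these subtypes, so osteoblasts were also compared alone.

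**Figure D3:**
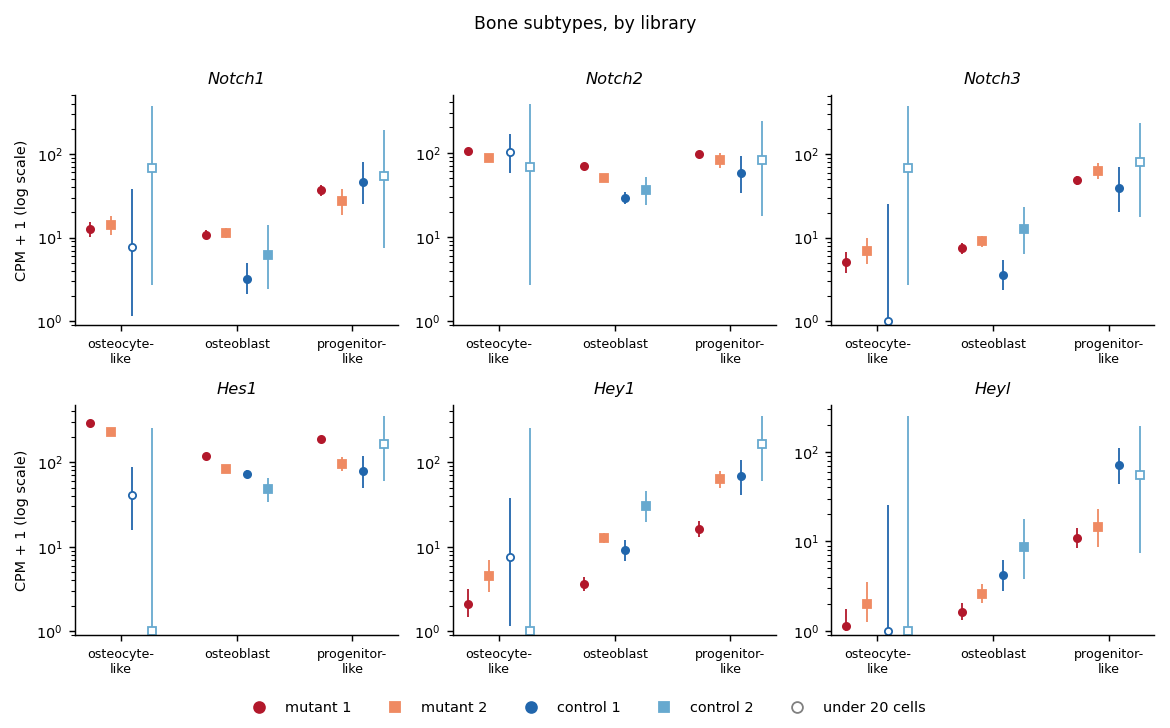
CPM + 1 on a log scale in osteocyte-like cells, osteoblasts and progenitor-like cells for 6 of the genes, 1 point per library (mutants left of controls) with exact 95% Poisson bars that cover counting error only; open symbols rest on under 20 cells. Hey1 and Heyl climb from osteocyte-like to progenitor-like cells in both mutants, and Hes1 is highest in the osteocyte-like cells of both mutants.

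Hes1 had 289 and 228 CPM in osteocyte-like cells of mutants 1 and 2 (367 and 216 cells), against 116.9 and 81.6 CPM in osteoblasts of the same libraries. The 11 osteocyte-like cells of control 1 held 6 Hes1 UMIs (40.0 CPM, exact 95% interval 14.7 to 87.1), and the 2 of control 2 held 0, so this subtype allowed no genotype test. Hey1 and Heyl ran the other way: in progenitor-like cells Heyl had 10.0 and 13.5 CPM in the mutants and 70.5 and 53.6 CPM in the controls, the last from 5 cells, while osteocyte-like cells of the mutants held 0.136 and 1.003 CPM. Hey1 had 15.4 and 62.3 CPM in progenitor-like cells of the mutants and 66.9 and 160.7 CPM in those of the controls. Notch1 and Notch3 had likewise more in progenitor-like cells than in osteoblasts of all 4 libraries, with Notch3 at 47.6 and 62.3 CPM in the mutants, against 6.43 and 8.09 CPM in their osteoblasts. Notch1 had 35.6 and 26.1 CPM in progenitor-like cells of the mutants and 45.8 and 53.6 CPM in those of the controls. Both mutants lay below both controls there, the reverse of the order over all bone cells, from 13 and 2 UMIs in the controls. These subtype differences were not tested.

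Within osteoblasts alone, 18.4% of 12000 genes passed the threshold (10.7% higher and 7.7% lower in mutants) and 4 of the 8 genes over the filter were called: Notch1 (1.68 ± 0.42 on the log2 scale, edgeR adjusted p = 0.0089) and Notch2 (0.80 ± 0.27, 0.0418) higher, and Hey1 (-1.68 ± 0.30, 7.06e-04) and Heyl (-2.46 ± 0.62, 0.0091) lower. Heyl had 0.64 and 1.61 CPM in mutant osteoblasts, against 3.19 and 7.76 CPM in control osteoblasts, from 14 and 27 UMIs against 16 and 6. Hes1 had 116.9 and 81.6 CPM, against 71.4 and 46.5 CPM, without overlap, and missed the threshold at 0.58 ± 0.22 (edgeR adjusted p = 0.0697). Notch4, called over all bone cells, was not called in osteoblasts, on 11 and 11 UMIs in the mutants and 11 and 3 in the controls. Notch4 was called with DESeq2 size factors in edgeR and Hes1 with no filter on low counts, while Heyl was lost with the stricter gate. Only Hey1 was called by DESeq2 and only Notch1 without the batch term, and no call was left without control 1 or without mutant 1; without control 2 it was Notch1 alone. Leaving out a library moved Notch1 to 0.88 (without control 1), Notch2 to 0.36 (without mutant 1) and Hey1 to -0.52 (without control 2).

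Of the other pathway genes, 34 were tested in bone cells, of which 4 rose and 1 fell, or 14.7% against the 17% of all genes. The list as a whole did not stand out from them. Lfng had the smallest p and rose to 20.9 and 11.7 CPM in mutants 1 and 2, against 3.42 and 3.03 CPM in controls 1 and 2 (2.37 ± 0.37, edgeR adjusted p = 1.41e-05). Its control values rest on 22 and 3 UMIs. Maml1, a coactivator of the Notch complex, rose by 0.996 ± 0.278 (log2, edgeR adjusted p = 0.0105) and Poglut1, which puts glucose on Notch, by 0.84 ± 0.26 (0.0245). Egfl7 rose by 2.57 ± 0.65 (0.005), on 2 UMIs in each control, beside the endothelial marker list that was higher in the same mutants. Dtx4, a Deltex ubiquitin ligase, fell by 1.40 on the log2 scale (SE 0.34, edgeR adjusted p = 0.0036), to 5.94 and 4.07 CPM in the mutants, against 11.8 and 14.1 CPM in the controls. In osteoblasts alone 5 rose and 1 fell of 32 (18.8% against 18.4% of all genes), and those with the smallest p were Lfng, Poglut1, Maml1 and Maml2, which rose, and Dtx4, which fell.

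In endothelial cells none of the 10 genes was called between genotypes. In that fit 4.91% of 10560 genes passed the threshold (2.05% higher and 2.85% lower in mutants), and 0 of the 8 genes over the filter did; DESeq2 also called 0. Without adjustment, 1096 genes passed 0.05 in the edgeR fit, among them Notch4 and Dll4. Notch4 differed by 0.54 ± 0.27 (log2, edgeR adjusted p = 0.458) and Dll4 by -0.66 ± 0.27 (edgeR adjusted p = 0.212). Notch1 differed by -0.05 ± 0.20, Jag1 by 0.04 ± 0.27 and Hes1 by 0.33 ± 0.19 (log2, edgeR adjusted p from 0.670 to 0.999). Notch4 was higher in both mutants (77.6 and 71.2 CPM) than in both controls (54.4 and 48.5 CPM), and Hes1 likewise (328 and 429 CPM against 314 and 306 CPM), while Dll4 overlapped. Within batches Dll4 was lower in the mutant each time, by log2 ratios of -1.10 in batch 1 and -0.50 in batch 2. Of 34 other pathway genes tested, 5.88% passed, against 4.91% of all genes: Neurl1b rose by 1.44 ± 0.41 (log2, edgeR adjusted p = 0.0144) and Psen2, a γ-secretase subunit, fell by 1.01 (SE 0.29, edgeR adjusted p = 0.0136). Neurl1b had 42.3 and 27.2 CPM in mutants 1 and 2, against 6.04 and 10.9 CPM in controls 1 and 2, with 1 UMI in control 1. Psen2 had 42.3 and 26.2 CPM against 66.5 and 55.5 CPM, with 12 UMIs in mutant 1 and 11 in control 1. No alternative setting is given for these genes. In the same gate the bone marker list summed to 645.7 and 759.6 CPM in mutants 1 and 2, against 223.5 and 68.9 CPM in controls 1 and 2, and the mural list to 370.5 and 537.3 CPM, against 1202 and 1410 CPM. Their part in these values was not tested.

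Whether the genotype difference itself differs between endothelial and bone cells was tested with an interaction term. Here 3.03% of 12851 genes passed the threshold (1.5% higher and 1.53% lower), and Notch4 was the 1 member called among the 10, with a difference between differences of 2.97 ± 0.71 (log2, edgeR adjusted p = 0.0024). Notch1 (-1.20 ± 0.45, edgeR adjusted p = 0.149), Hes1 (-0.48 ± 0.39, 0.723) and Hey1 (1.70 ± 0.82, 0.365) were not called, so that a difference of genotype effect between the classes is not shown for them. Of 38 other pathway genes tested, 2 were called (5.26%, against 3.03% of all genes), Nrarp higher and Egfl7 lower. The Notch4 call was lost without control 1 (3.40 ± 1.05, edgeR adjusted p = 0.055) and without control 2 (2.65 ± 0.81, 0.0917).

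Endothelial subtypes were gated as sinusoidal (Stab2, Flt4 and others), as Flt1- and Aplnr-positive, and as arterial (Gja4, Gja5, Bmx, Sema3g and others). Sinusoidal cells made up 11.6% and 26.1% of endothelial cells in mutants 1 and 2, against 55.6% and 80.5% in controls 1 and 2, and Flt1- and Aplnr-positive cells 67.4% and 52.1% against 25.9% and 8.67%. The part of this mix in the endothelial genotype values was not tested. Both subtypes could be compared in mutant 2 and control 2, with the library as a block.

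**Figure D4:**
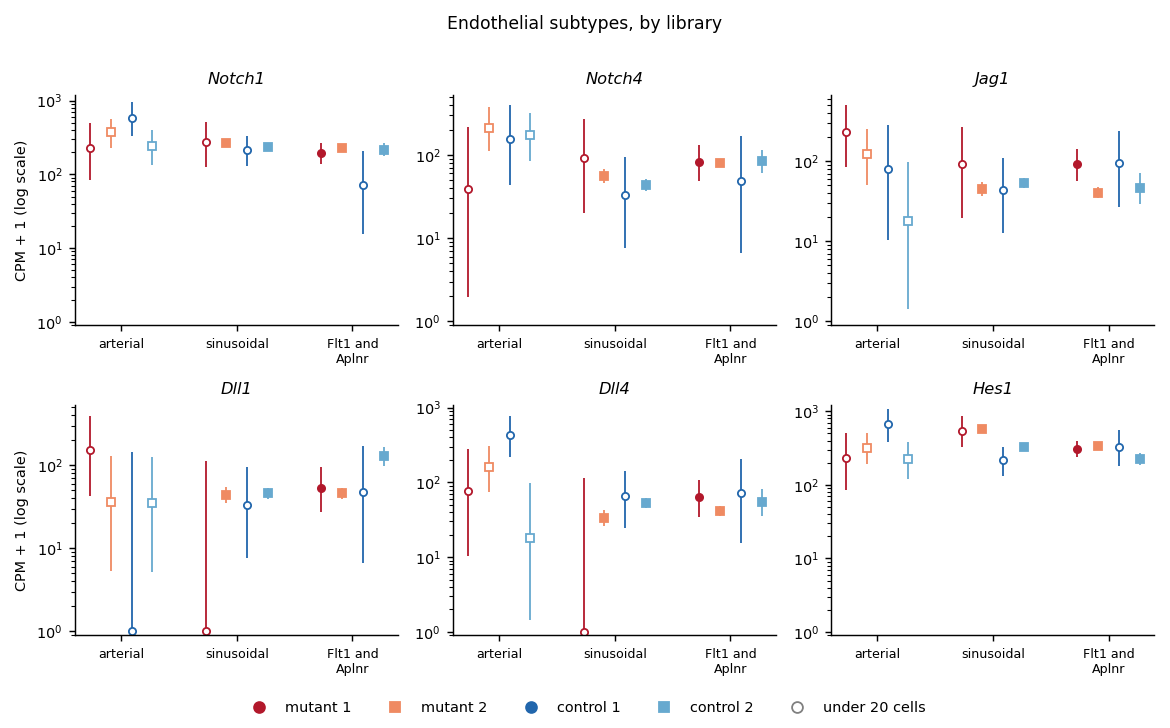
CPM + 1 on a log scale in arterial, sinusoidal and Flt1- and Aplnr-positive endothelial cells for 6 of the genes, 1 point per library (mutants left of controls) with exact 95% Poisson bars that cover counting error only; open symbols rest on under 20 cells. Hes1 is higher in sinusoidal than in Flt1- and Aplnr-positive cells of mutant 2 and control 2, and the arterial points carry wide bars.

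In that comparison 8.62% of 10738 genes passed the threshold (4.72% higher and 3.9% lower in sinusoidal cells), and Hes1 was the only one called of the 8 genes over the filter. It had 582 CPM in sinusoidal cells of mutant 2 and 327 CPM in those of control 2, against 340 and 224 CPM in the Flt1- and Aplnr-positive cells of the same libraries (0.70 ± 0.14 on the log2 scale, edgeR adjusted p = 0.0046), and the call was lost in DESeq2. Notch4 had 55.2 and 42.6 CPM in sinusoidal cells, against 78.5 and 84.2 CPM, and narrowly missed the threshold (-0.67 ± 0.20, edgeR adjusted p = 0.0504). Dll1 had 43.2 and 45.2 CPM in sinusoidal cells of mutant 2 and control 2, against 44.8 and 127.4 CPM in the other subtype, so that the 2 libraries did not show the same pattern (-0.70 ± 0.27, edgeR adjusted p = 0.145). Notch1 was close in both subtypes (269 and 233 CPM against 226 and 216 CPM; 0.22 ± 0.15, edgeR adjusted p = 0.492). Jag2, the other Jagged ligand, was the 1 of 35 other pathway genes called (2.86% against 8.62% of all genes), lower in sinusoidal cells by -1.30 ± 0.36 (log2, edgeR adjusted p = 0.0347).

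Arterial cells were few, with 6 and 6 in mutants 1 and 2 and 3 and 4 in controls 1 and 2, and were not tested. Dll4 had 76.4 and 159.2 CPM there in the mutants and 430.1 and 17.2 CPM in the controls, from 1 to 11 UMIs. Hey1 had 38.2 and 141.5 CPM in arterial cells of the mutants and 78.2 and 34.3 CPM in those of the controls, from 1 to 8 UMIs, above the endothelial gate as a whole in each library. Flt1- and Aplnr-positive cells held 19.3 and 4.92 CPM of Hey1 in mutants 1 and 2 and 70.4 and 4.32 CPM in controls 1 and 2. In mutant 1 and control 1 these cells gave 4 and 3 of the 5 endothelial Hey1 UMIs of each library. The arterial marker list summed to 1076 and 427 CPM in the endothelial gate of mutants 1 and 2 and to 876 and 243 CPM in that of controls 1 and 2, higher in mutant 1 and control 1, where endothelial Hey1 was also higher (17.6 and 30.2 CPM, against 4.37 CPM in mutant 2 and 1.82 CPM in control 2); its part in the Hey1 level was not tested.

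In stromal cells the genotypes could not be tested, since mutant 2 held 16 cells. Heyl had 26.1 and 5.32 CPM in stromal cells of mutants 1 and 2, against 68.6 and 40.6 CPM in those of controls 1 and 2, from 13 and 1 UMIs against 414 and 14, and the groups did not overlap. Notch2 stood at 144.4 and 111.6 CPM in the mutants, against 103.8 and 84.0 CPM in the controls. Notch1, Jag1, Hes1 and Hey1 overlapped between the genotypes; Hey1 was 74.4 CPM in mutant 2, from 14 UMIs, and 14.0 to 15.4 CPM in the other libraries. Stromal markers were lower in these mutant cells, as given above, and their part in the Heyl level was not tested.

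The genes whose levels followed each member most closely were found over 26 library-by-class points with at least 20 cells, among 10851 genes with a mean of at least 5 CPM, by Pearson's r of log2(CPM + 1). These points share 4 libraries and classes of unequal depth, so r is a description, and Olfml2b and Adamts5 are themselves gate markers. Dll4 was followed by Gpr4, Ackr2 and Pcdh12 (r from 0.993 to 0.998), Dll1 by She, Prex2 and Ptprb (0.973 to 0.981), and Notch4 by Tfpi2, Nova2 and Klhl4 (0.940 to 0.959). Notch3 was followed by Rspo3 and St8sia2 (0.981 each), Jag1 by Erbb2, Adamts5 and Tcf7l1 (0.961 to 0.969), and Notch1 by Diaph2, Glud1 and Nck1 (0.924 to 0.954). Of the response genes, Hes1 was followed by Sash1, Mfge8 and Kremen1 (0.935 to 0.946) and Hey1 by Mapre3, Dpysl3 and Mageh1 (0.919 to 0.949), both close to the values for Notch1. The loosest companions were those of Heyl (Gdpd2, Tnfrsf19 and Hmgcll1, 0.871 to 0.875) and Notch2 (Acot1, Olfml2b and Ugdh, 0.829 to 0.845).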

How the data were processed

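The deposited values are UMI counts for each gene in each barcode, not normalized by the authors, as whole numbers per the file headers. Reads were processed with Cell Ranger on mm10, per the submitters' processing notes, with version 5.0.1 for control 1 and mutant 1 (batch 1) and 6.1.2 for control 2 and mutant 2 (batch 2); the matrix headers name other versions for some libraries, and the batches rest on the notes. The sources used here do not name the annotation or the counting settings. The matrix of mutant 1 holds 3352 called barcodes, so free RNA could not be read there. The labels do not tie mice to libraries, so the spread behind each p-value may be partly technical. In the genotype fits it is the spread between libraries. In the class fits the block takes out the differences that a library shows in both classes. Each batch holds 1 mutant and 1 control library, so the batch term sets mutant 1 against control 1 and mutant 2 against control 2. The replicate numbers themselves follow accession order.

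A cell entered the class with the highest share of its markers detected, if at least 50% were; ties, cells that also passed a second class (other than stromal with bone, or blood with bone) and non-blood cells with over 2 of 5 pan-blood markers were left out, which kept 14707 cells. The thresholds of the gates were chosen with marker levels in view. A stricter gate and other settings were tried as alternatives. Doublets were left to the gates; as an alternative, the top 0.8% per 1000 cells by Scrublet (scanpy 1.11.5) was removed.

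Counts were summed per library and class (at least 20 cells) and tested over all genes with edgeR 4.0.16 in R 4.3.3 (TMM, filterByExpr, quasi-likelihood, Benjamini-Hochberg at 0.05). Residual degrees of freedom were 1 to 3, and the prior was estimated as infinite in the endothelial genotype, stromal and interaction fits. The genotype fits in bone cells and in osteoblasts had 1 residual degree of freedom each, against 34.5 and 17.6 of the prior. The spread in these fits thus came mostly from other genes. DESeq2 1.42.0 was an alternative. The genotype fits had batch as a term and the class fits had the library as a block. CPM are UMIs per 1000000 UMIs of the summed class. They carry no TMM scaling, so a fitted difference need not equal the ratio of the printed CPM. Intervals are exact, at 95%, and cover counting error only; a count of 0 allows up to 3 UMIs or cells. The members, lists and markers were chosen with earlier results of these data known. Named beside the 10 members are the 5 called genes with the smallest p in each test from a list of 43 pathway genes, and the 3 most alike genes for each member, of which 1 is not reported here.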

Additional observations from a re-analysis of the deposited data

Results flagged for a closer look

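The genotype difference was tested against itself between endothelial and bone cells, and 3 pathway genes passed. They were 1 of the 10 members and 2 of 38 other pathway genes (5.26%), against 3.03% of all genes tested. Notch4 differed by 2.97 (log2, edgeR adjusted p = 0.0024): it was higher in mutant than in control endothelial cells in both batches (log2 ratios of 0.51 and 0.56) and lower in mutant than in control bone cells in both (-2.28 and -2.49), where the level rests on 4 to 18 UMIs per library. Nrarp differed by 3.43 (log2, edgeR adjusted p = 0.0321), with 127 and 83.9 CPM in mutant and 24.2 and 68.5 CPM in control endothelial cells, and with 2 and 11 UMIs in mutant and 4 and 1 UMIs in control bone cells. The 24.2 CPM of control 1 rests on 4 UMIs. Between genotypes in endothelial cells alone, Nrarp was not called (edgeR adjusted p = 0.182). Egfl7 differed by -2.65 (log2, edgeR adjusted p = 0.0117), with 106 and 236 UMIs in mutant and 2 and 2 UMIs in control bone cells. With 2 libraries a genotype, no library was tested as lying apart from its group.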

How the results depend on the processing

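Of the 10 genes, those called between genotypes in bone cells numbered 6, and they numbered 2 with DESeq2 and 1 with no batch term; the number of all genes called was 2194, against 898 and 707. Leaving out 1 library gave 0 to 5 of the 10. In osteoblasts the 4 calls became 1 with DESeq2 and 1 with no batch term (2212 genes in all, against 882 and 919), and 0 to 3 with a library left out. In stromal against bone cells the 7 calls became 4 with DESeq2 (5263 genes in all, against 2281), and Hes1 ranged from -0.63 without control 1 to 1.46 without control 2 (log2). In sinusoidal against Flt1- and Aplnr-positive cells the 1 call became 0 with DESeq2, 3 with no filter on low counts, 2 with the stricter gate and 2 with Scrublet doublets removed (926 genes in all, against 319 with DESeq2). For the difference of genotype differences, the 1 call was Notch4 (390 genes in all, against 97 with DESeq2). Leaving out a library changed which gene was called: Hey1 in place of Notch4 without control 1, Hey1 beside it without mutant 2, and none without control 2. In endothelial cells no setting called any of the 10 between genotypes (518 genes in all, 107 with DESeq2 and 67 with no batch term). Thinning set the size of the share of bone cells with a UMI, mutant minus control: it was 0.838 percentage points for Notch1, 7.94 for Hes1, -1.02 for Hey1 and -0.327 for Heyl when thinned, and 9.97, 16.9, -14.0 and -6.44 without thinning. The cause of these shifts was not tested. The batch term already pairs mutant 1 with control 1 and mutant 2 with control 2, so the fits with no batch term are the unpaired ones. No further paired analysis was run, since the replicate numbers follow accession order and name the same pairs. Tests of arterial, osteocyte-like and progenitor-like cells and of genotype in stromal cells were not run, for want of 20 cells in a library. Small sums in the genotype tests include 27 endothelial cells in control 1, 43 in mutant 1, and 45 bone cells with 29 osteoblasts among them in control 2.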
